A study of Mus musculus with 16 samples.

Results

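The dual-specificity MAP kinase phosphatases described here are the 6 genes Dusp1, Dusp2, Dusp3, Dusp4, Dusp6 and Dusp16, chosen by gene symbol from the array annotation, out of 16558 named genes. They are read by 15 of the 25697 probes. The arrays were Illumina mouse bead arrays, and the cells were bone marrow-derived macrophages of male, 10-week-old wildtype mice of the strain c57Bl6/J. All cells spent a night in 1 µM of the synthetic glucocorticoid dexamethasone (Dex) or in ethanol as its vehicle. They then either received lipopolysaccharide (LPS), a bacterial product sensed by Toll-like receptor 4, or were left unstimulated. Each of 2 experiments, with 3 h or 6 h of LPS, held 4 groups of 2 arrays, which were Dex plus LPS, LPS after vehicle, Dex alone and vehicle alone (unstimulated), 16 arrays in all.

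MAP kinases (ERK, JNK and p38) are switched on by phosphorylation of a threonine and a tyrosine in their activation loop. Dual-specificity phosphatases remove both phosphates and so switch the kinases off. Several are immediate-early genes that the kinases themselves induce, which makes them feedback inhibitors. In macrophages Dusp1 is known for limiting p38 and JNK activity after LPS, and it is a long-known glucocorticoid-induced gene. Dusp2 and Dusp4 are, like Dusp1, nuclear and inducible. Dusp6 is cytoplasmic and acts on ERK, Dusp16 acts on JNK and p38, and Dusp3 is a small phosphatase that lacks the MAP kinase binding domain of the others.

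The promoters of 3 members are shown because these genes carried the largest rises with LPS (Dusp2 and Dusp16) or with Dex (Dusp1). RefSeq (GRCm38.p6) gave promoters for 5 of the 6 members. Each line holds the 250 bases before the start used for that promoter, 5′ to 3′ on the strand of the gene. For Dusp1 and Dusp2 the window directly borders the gene. For Dusp16 it lies inside the gene, which spans chr6:134715468-134807063. The window of Dusp3, not shown, also lies inside its gene (chr11:101984792-101985041 within 101971141-101987013). They lie at chr17:26508473-26508722 (minus strand) for Dusp1, chr2:127335909-127336158 (plus strand) for Dusp2 and chr6:134792629-134792878 (minus strand) for Dusp16. Capitals mark TGACG, the half-site of the cAMP response element, and CACGTG, the E-box, on either strand.
Dusp1: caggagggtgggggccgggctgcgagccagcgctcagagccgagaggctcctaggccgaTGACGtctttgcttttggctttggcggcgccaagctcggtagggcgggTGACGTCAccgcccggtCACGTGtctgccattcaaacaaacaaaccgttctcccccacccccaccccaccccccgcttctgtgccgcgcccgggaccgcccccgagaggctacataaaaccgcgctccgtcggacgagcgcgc
Dusp2: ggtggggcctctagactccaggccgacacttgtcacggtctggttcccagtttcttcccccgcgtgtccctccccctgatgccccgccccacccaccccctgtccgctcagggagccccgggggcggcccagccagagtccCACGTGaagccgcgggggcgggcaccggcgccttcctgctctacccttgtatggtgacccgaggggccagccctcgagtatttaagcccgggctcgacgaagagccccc
Dusp16: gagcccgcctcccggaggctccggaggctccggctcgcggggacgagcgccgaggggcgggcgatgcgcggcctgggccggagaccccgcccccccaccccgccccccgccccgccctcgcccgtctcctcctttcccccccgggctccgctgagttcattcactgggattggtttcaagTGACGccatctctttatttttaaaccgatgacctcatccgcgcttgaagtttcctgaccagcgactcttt
The Dusp1 promoter held the full palindrome TGACGTCA, which begins 143 bases before the start and contains 2 of the 3 half-site matches there. That palindrome was found in 1.55% of the 32851 promoter windows of the same length, TGACG in 17.8% and CACGTG in 6.02%. The E-box stood 126 bases before the start of Dusp1 and 109 bases before that of Dusp2. Dusp16 had a single half-site, 70 bases before the start used for its window, which is not the outer end of the gene. None of the 5 windows matched the glucocorticoid response element consensus (0.387% of all windows), TGANTCA for AP-1 (6.75%), the consensus NF-kB site (7.25%) or the CArG box (1.47%). The motifs were chosen with the sequences and the expression values known, both strands were searched, and a match or its lack is a description of these letters only.

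The levels of some genes went against labels of the 3 h experiment. The cytokine gene Tnf was saturated on every 3 h array, with a signal of 62658 ± 177 (SD, n = 2) on those labelled unstimulated, while on the 6 h unstimulated arrays it had 1890 ± 403. Fkbp5, a glucocorticoid-induced co-chaperone, had 1873 ± 155 on the 3 h arrays labelled Dex plus LPS, 239.3 ± 12.1 where the label was Dex and 238.5 ± 12.9 where it was unstimulated, against 2989 ± 223 for Dex and 250.7 ± 46.4 for unstimulated at 6 h. The labels were kept, and each 3 h comparison with the arrays labelled unstimulated or Dex has this limit. The difference between Dex plus LPS and LPS at 3 h uses the mean of neither group. These arrays do share its quantile normalization and probe filter, and they enter the spread behind its p-values. An alternative chosen after seeing the data left them out of the fit, though not out of the normalization or the filter. The adjusted p of that comparison was then 0.00464 for Dusp1, 0.0868 for Dusp3, 0.0127 for Dusp4 and 0.0315 for Dusp16.

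Of the 25697 probes, each 3 h array had 11273 to 11921 above background (detection p under 0.05) and each 6 h array 10407 to 11281. On the log2 scale the median residual SD within groups was 0.113 at 3 h and 0.202 at 6 h. Arrays of 1 group are technical replicates per the labels, so p-values measure the spread between arrays and not between cultures or mice, and precision is limited by having 2 of them. All 7 macrophage markers were detected in every group and none of 4 T cell markers in any. All 6 neutrophil markers were detected too, with summed signals of 53142 with Dex plus LPS and 38714 with LPS at 3 h, and of 48277 with Dex plus LPS and 48591 with LPS at 6 h (38714 to 56007 over all groups). Their part in the results was not tested. In such bulk samples fewer cells of a type and less RNA per cell cannot be told apart.

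Signals below are the deposited, unnormalized intensities of each array. Differences are log2 ± SE after background correction and quantile normalization within an experiment, fitted with limma on the 8 arrays of that experiment (n = 2 per group). A gene was called at a Benjamini-Hochberg adjusted p under 0.05 and at least 2-fold. Of the 15 probes, 14 were detected in the 3 h experiment and 15 in the 6 h experiment, all 6 genes passed the filter in both, and for a gene with several probes the brightest stood for the gene.

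**Figure D1:**
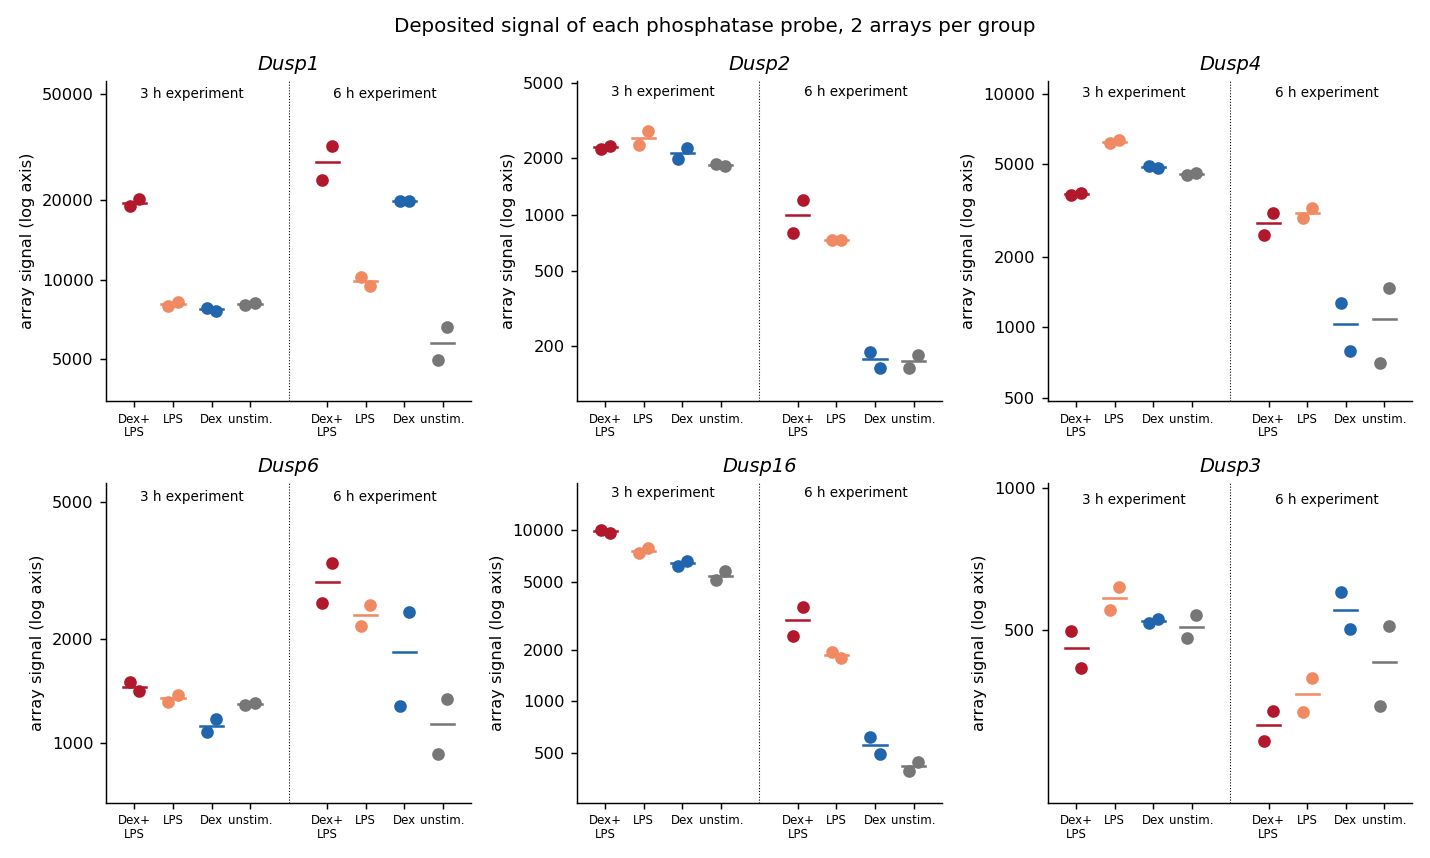
Deposited signal (log axis) of the probe that stands for each phosphatase, 1 point per array and a bar at the mean of the 2 arrays, for 4 treatments in each experiment. Dusp1 was high on all Dex plus LPS arrays and on the 6 h arrays with Dex alone, and within the 6 h experiment Dusp2, Dusp4 and Dusp16 were higher on the arrays with LPS than on those without. All 3 h arrays had higher signals of these 3 genes than the 6 h arrays.

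Dusp1, the nuclear phosphatase of p38 and JNK, was the member that Dex raised, and it was 2.54-fold higher with Dex plus LPS than with LPS at 3 h and 2.85-fold higher at 6 h. Its probe had signals of 18918 and 20094 with Dex plus LPS at 3 h, against 7940 and 8265 on the LPS arrays. In the 6 h experiment it had 23715 and 32006 with Dex plus LPS, against 10271 and 9467 with LPS. In both experiments the Dex plus LPS arrays stood well above the LPS arrays, with no overlap. The difference was 1.35 ± 0.07 at 3 h (adjusted p = 0.000149) and 1.51 ± 0.17 at 6 h (adjusted p = 0.000649). Leaving the 3 h arrays whose labels are in doubt out of the fit kept the 3 h call (adjusted p = 0.00464). The summed neutrophil markers were higher with Dex plus LPS than with LPS at 3 h (53142 against 38714) and close at 6 h (48277 against 48591). The 6 h call was lost in the authors' cubic spline table (-0.04, adjusted p = 0.866), where 0 of 7791 genes were called in this comparison. The Dex marker Fkbp5 was there at -0.03 ± 0.10 (adjusted p = 0.889). Dusp1 was the only one of the 6 members called in this comparison at either time, where 3.44% of 8032 genes were called at 3 h and 3.76% of 7791 at 6 h. The median difference of the 6 members was -0.027 at 3 h and 0.135 at 6 h, against 0.035 and 0.062 over all genes. The Dex effect on Dusp1 under LPS at 6 h minus that at 3 h was 0.17 ± 0.16 (adjusted p = 0.614, 95% interval of -0.17 to 0.51). With the mean of each pair of arrays and the 2 experiments as the only repeats, the difference was 1.43 ± 0.18 (adjusted p = 0.000831).

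Dex alone also raised Dusp1 in the 6 h experiment. The Dex arrays had signals of 19808 and 19850, against 4972 and 6599 on the unstimulated arrays, so that Dex alone put the gene above every LPS array without Dex. The difference was 1.57 ± 0.17, or 2.97-fold (adjusted p = 0.000707), and Dusp1 was again the only called member, beside 3.52% of all genes. This call, too, was lost in the spline table (adjusted p = 0.996), where 0 of 7791 genes were called for Dex against unstimulated. The difference between the Dex effects with and without LPS at 6 h was -0.06 ± 0.24 (adjusted p = 0.932, 95% interval of -0.58 to 0.47). LPS without Dex gave 0.46 ± 0.17 against unstimulated at 6 h (1.38-fold, adjusted p = 0.0519), and Dex plus LPS gave 0.41 ± 0.17 against Dex (adjusted p = 0.0961). By group means the 6 h order was Dex plus LPS, Dex, LPS and unstimulated, with no overlap of arrays between neighbours on the normalized scale. The first and the last of these steps were not called.

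On the 3 h arrays Dusp1 had another pattern, since only the Dex plus LPS arrays were high. The arrays labelled Dex had 7811 and 7636 and those labelled unstimulated 8022 and 8183, near the LPS values. Dex against unstimulated was -0.19 ± 0.07 (adjusted p = 0.124), Dex plus LPS against Dex was 1.38 ± 0.07 (adjusted p = 0.000142), and the Dex effect with LPS minus that without was 1.53 ± 0.10 (adjusted p = 0.00047). Fkbp5 was likewise high only with Dex plus LPS on these arrays, and whether wrong labels play a part in the result was not tested.

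**Figure D2:**
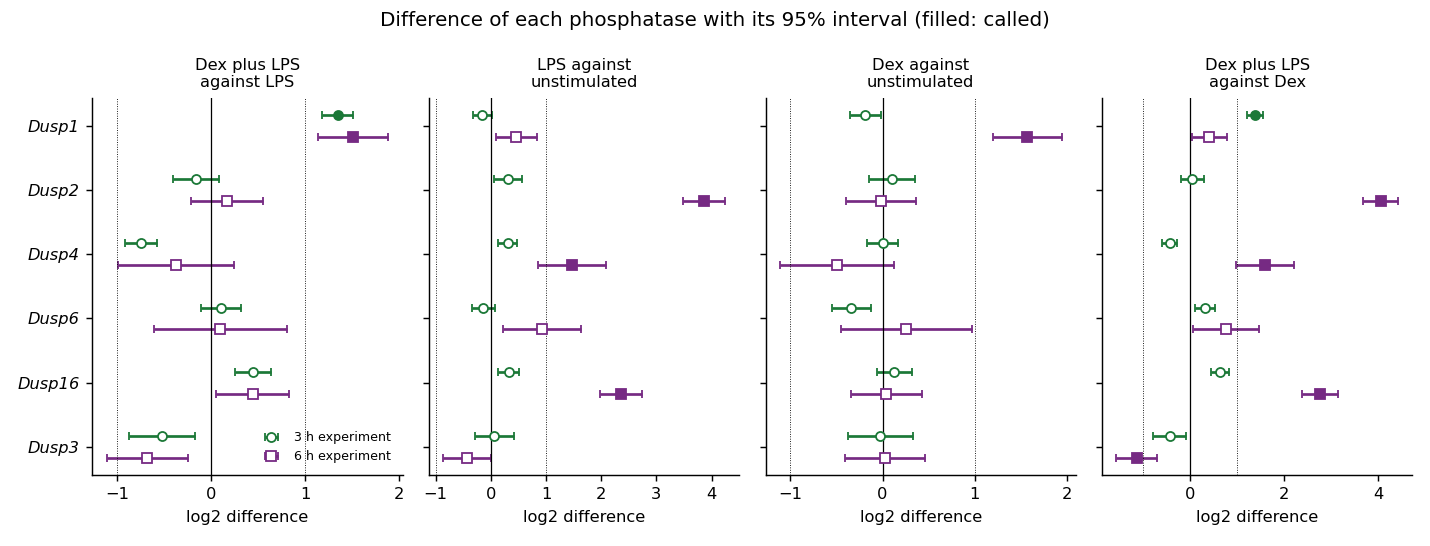
Log2 difference of each phosphatase in 4 comparisons, with its 95% interval, for the 3 h experiment (circles) and the 6 h experiment (squares). Filled symbols passed both thresholds and dotted lines mark a 2-fold difference. Dusp1 was called in both experiments for Dex plus LPS against LPS, and Dusp2, Dusp4 and Dusp16 for LPS against unstimulated at 6 h.

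LPS raised 3 of the 6 members at 6 h, Dusp2, Dusp16 and Dusp4, where 17.1% of all genes were called, 8.36% higher and 8.75% lower. The median difference of the 6 members was 1.20, against -0.089 over all genes tested. Dusp2, a nuclear ERK phosphatase first described in activated lymphocytes, had signals of 729.2 and 735.5 with LPS, against 153 and 177.7 on the unstimulated arrays. The unstimulated values were not above background on either array, so the rise is a bound, at least 9.25-fold on the background-corrected scale (adjusted p = 2.47e-07). Its size depends on the processing, with a difference of 2.26 without background correction and 2.06 in the authors' value table, the lowest over the alternatives, and it was called in each of them. The LPS arrays were far above the unstimulated ones and close to each other. With Dex plus LPS the signals were 796.8 and 1197, and with Dex alone 185.6 and 153, not above background for this probe. Dex plus LPS against LPS differed by 0.17 ± 0.17 (adjusted p = 0.598, 95% interval of -0.21 to 0.55), so no Dex effect on Dusp2 was detected at this precision. Dex plus LPS against Dex was 4.05 ± 0.17 (adjusted p = 1.68e-07), a fitted value that depends on the background correction since the Dex arrays were not above background.

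Dusp16, the JNK and p38 phosphatase, was the other strong LPS responder. Its signals were 1933 and 1793 with LPS, against 393 and 446.4 on the unstimulated arrays, a difference of 2.36 ± 0.17 (5.12-fold, adjusted p = 6.59e-06). The groups stood far apart. With Dex plus LPS it had 2409 and 3535, against 619.2 and 494.1 with Dex alone, a difference of 2.76 ± 0.17 (6.76-fold, adjusted p = 2.49e-06). The highest group in both experiments was Dex plus LPS. At 3 h its signals were 10020 and 9641 with Dex plus LPS, against 7352 and 7812 with LPS, and the difference of 0.45 ± 0.08 had an adjusted p of 0.0085 but was under 2-fold (1.36-fold). The arrays did not overlap. At 6 h the same difference was 0.44 ± 0.17 (adjusted p = 0.159), and 0.44 ± 0.18 with the experiments as repeats (adjusted p = 0.174). Both 95% intervals lay above 0 before adjustment, from 0.26 to 0.64 at 3 h and from 0.06 to 0.83 at 6 h.

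Dusp4, the nuclear phosphatase of ERK and JNK, rose with LPS by 1.47 ± 0.28 at 6 h (2.77-fold, adjusted p = 0.00242), a call that was lost in the spline table, where the difference was 0.99 and so under 2-fold. Its signals were 2938 and 3240 with LPS, against 704.2 and 1472 on the unstimulated arrays, which lay far apart from each other while the LPS arrays were close. Dex plus LPS arrays had 2475 and 3093, against 1274 and 796.2 with Dex alone, a difference of 1.59 ± 0.28 (adjusted p = 0.00193), which was 0.96 and under 2-fold in the spline table. At 3 h Dusp4 went against Dusp1. Its signals were 3670 and 3743 with Dex plus LPS, against 6137 and 6337 with LPS, and every Dex plus LPS array was the lower. The difference of -0.74 ± 0.07 had an adjusted p of 0.00106 and was under 2-fold (1.67-fold lower). With the 2 experiments as the only repeats it was -0.56 ± 0.19 (adjusted p = 0.102). All 3 Dusp4 probes were lower, by 0.74 to 1.34 on the log2 scale, and the mean of the 3 probes passed the 2-fold threshold (-1.02, adjusted p = 0.00048). In the 6 h experiment the difference was -0.37 ± 0.28 (adjusted p = 0.457), and the 6 h effect minus the 3 h effect was 0.37 ± 0.32 (adjusted p = 0.583).

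Dusp6, the cytoplasmic ERK phosphatase, had an uneven pattern. Its 6 h signals were 2181 and 2523 with LPS, against 931.4 and 1343 on the unstimulated arrays, and the difference of 0.92 ± 0.32 (adjusted p = 0.0438) was under 2-fold and had the opposite sign in the spline table (-1.35). The Dex arrays had 1278 and 2399, far apart from each other, with an SD of 0.848 on the normalized log2 scale. Its other probes had 878.9 and 769.4, and 223.7 and 195.1, on these arrays, against 417.1 and 449.8, and 148 and 182.8, unstimulated. Dex against unstimulated at 6 h was 0.26 ± 0.32 (adjusted p = 0.644). The other probes gave 0.68 ± 0.20 (adjusted p = 0.0737) and 0.67 ± 0.22 (adjusted p = 0.101) in the limma fit of single probes. Dex plus LPS against Dex was 0.76 ± 0.32 (adjusted p = 0.0991), and 1.36 without the second Dex array (adjusted p = 0.00133). Dex plus LPS against LPS gave 0.11 ± 0.09 at 3 h (adjusted p = 0.387) and 0.10 ± 0.32 at 6 h (adjusted p = 0.89), so no Dex effect under LPS was detected. The 6 h interval, from -0.61 to 0.81, is wide.

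Dusp3, the small phosphatase that acts on ERK and JNK, was the member with a negative LPS difference at 6 h. There it had 291.3 and 337.4 with Dex plus LPS, against 601.9 and 501.8 with Dex alone, the lowest and the highest group of that experiment. This difference was -1.14 ± 0.19 (2.2-fold lower, adjusted p = 0.00167), although it fell short of 2-fold with other processing and was -0.53 as the mean of its 3 probes. In the same comparison 4 of 6 members were called, Dusp2, Dusp16 and Dusp4 higher and Dusp3 lower, where 13.5% of all genes were called. LPS against unstimulated was -0.43 ± 0.19 at 6 h (adjusted p = 0.106). Dex plus LPS against LPS was -0.52 ± 0.15 at 3 h (adjusted p = 0.0375, under 2-fold) and -0.68 ± 0.19 at 6 h (adjusted p = 0.0615). With the 3 h arrays in doubt left out of the fit, the 3 h adjusted p was 0.0868. All 3 Dusp3 probes were lower with Dex plus LPS in both experiments, by 0.21 to 0.54 at 3 h and by 0.16 to 0.68 at 6 h on the log2 scale.

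**Figure D3:**
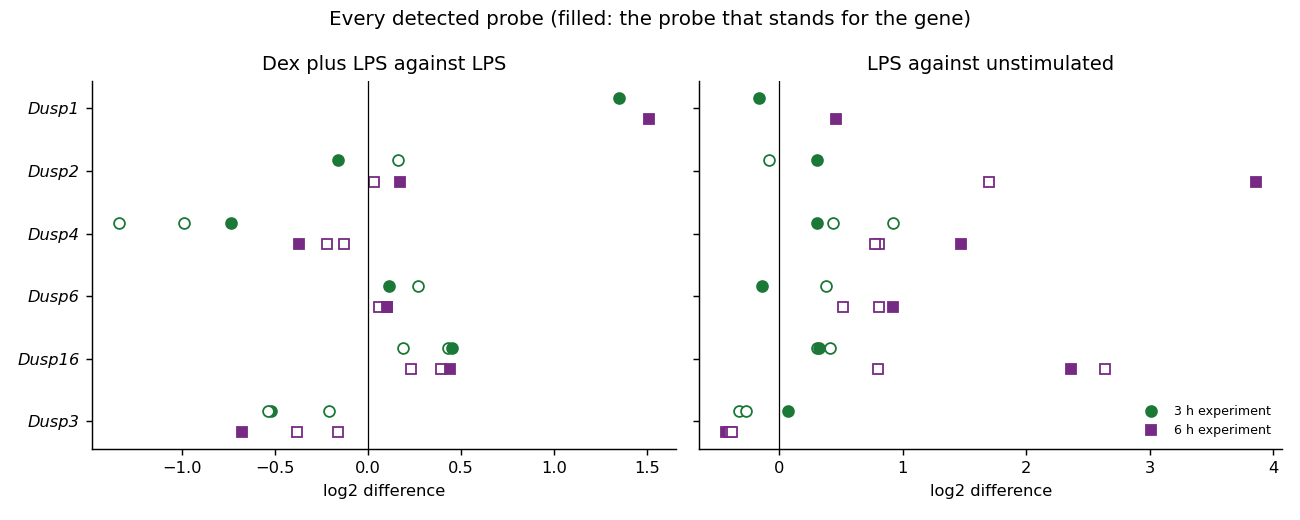
Log2 difference of every detected probe of the 6 genes for Dex plus LPS against LPS (left) and LPS against unstimulated (right), 3 h circles and 6 h squares, with the probe that stands for the gene filled. The probes of Dusp4, Dusp16 and Dusp3 ran the same way within each experiment for Dex plus LPS against LPS, while the Dusp2 probes lay on both sides of 0 at 3 h.

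At 6 h the probes of a gene ran the same way for LPS against unstimulated and differed in size. The 2 Dusp2 probes gave 1.70 and 3.86, the 3 Dusp16 probes 0.80 to 2.64, the 3 Dusp4 probes 0.78 to 1.47 and the 3 Dusp6 probes 0.52 to 0.92. The probes that stood for the genes were the brightest. The dimmest Dusp16 probe, with signals of 135.5 to 238.6 over all arrays, gave the smallest difference. Dusp1 has a single probe on the array.

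The 3 h comparisons with arrays labelled unstimulated or Dex gave few calls. LPS against unstimulated called 0 of 6 members by limma, where 2.91% of all genes were called. Dusp16 (0.32 ± 0.08, adjusted p = 0.0228) and Dusp4 (0.31 ± 0.07, adjusted p = 0.0181) were higher by under 2-fold, and Dusp2 was at 0.31 ± 0.10 (adjusted p = 0.0561). These sizes were near the median absolute difference over all genes in this comparison, 0.278. The levels there differ from those of the 6 h unstimulated arrays. Dusp2 had signals of 1856 and 1806 on the 3 h arrays labelled unstimulated, and Dusp16 had 5108 and 5737, both above the 6 h LPS arrays, although the experiments were normalized separately and RNA was extracted by another protocol in each. Dex against unstimulated called 0 of 6, beside 0.759% of all genes, with Dusp6 at -0.34 ± 0.09 (adjusted p = 0.0512). Dex plus LPS against Dex called Dusp1 alone, beside 2.8%, with Dusp16 at 0.64 ± 0.08 (adjusted p = 0.00387) and Dusp4 at -0.44 ± 0.07 (adjusted p = 0.00946). The difference of the Dex effects called Dusp1 alone too, beside 8.84% of all genes, with Dusp4 at -0.75 ± 0.10 (adjusted p = 0.00354) and Dusp6 at 0.45 ± 0.12 (adjusted p = 0.0354). At 6 h the difference of the Dex effects called 0 of 6, beside 0.565% of all genes, with Dusp3 at -0.71 ± 0.27 (adjusted p = 0.253). The Dex effect under LPS at 6 h minus that at 3 h called 0 of 6 as well, beside 0.737% of 7458 genes. The shares of all genes called depend on single arrays. The 44 calls for the difference of the Dex effects at 6 h became 362 without the second Dex array, and 3 to 16 without any other 1 of the 8 arrays. The 274 calls for Dex against unstimulated at 6 h became 163 without the first Dex array and 607 without the second. The 293 for Dex plus LPS against LPS at 6 h became 153 and 140 without the first or second Dex plus LPS array and 179 and 164 without the first or second LPS array. The 61 for Dex against unstimulated at 3 h became 40 and 35 without the first or second Dex array. The 55 for the Dex effect under LPS at 6 h minus that at 3 h became 104 without either 6 h Dex array, and 0 to 17 without any 1 of the 8 arrays of the 3 h experiment or the 4 arrays with LPS at 6 h. The members called in the full fit stayed called each time.

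A further deposited 6 h table, normalized by cubic spline per its headers, gave other values for Dusp1 and Dusp6. Its columns had rank correlations of only 0.863 to 0.895 with the unnormalized column of the same name, and for 6 of 8 columns another array had the higher correlation, so the values are not those of the unnormalized table rescaled. Dusp1 had 7758 and 6862 with Dex plus LPS and 7721 and 7270 with LPS there, and 6360 and 5506 with Dex against 5820 and 6053 on the unstimulated columns. Of 7791 genes, 0 were called there for Dex plus LPS against LPS and 0 for Dex against unstimulated. No Dex effect on Dusp1 was detected in these values. For Fkbp5 none was detected either, with 419.8 ± 8.43 for Dex and 439.1 ± 35 for unstimulated, while Tnf was at 49701 ± 5097 with LPS and 2012 ± 73.7 unstimulated. Dusp6 ran the other way, at 977.1 and 861.3 with LPS, against 2372 and 2314 unstimulated (-1.35 ± 0.09, adjusted p = 8.63e-11). Dusp2 was called higher with LPS there too (2.48 ± 0.09, adjusted p = 8.36e-15), while Dusp4 at 0.99 ± 0.09 (adjusted p = 9.49e-09) was just under 2-fold and lost its call. Dusp16 had 2138 and 2048 with LPS there, against 783.9 and 695 unstimulated (adjusted p = 2.24e-11). Why the tables differ was not tested. The authors' 6 h value table did follow the unnormalized one, with Pearson correlations across probes of 0.960 to 0.982.

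**Figure D4:**
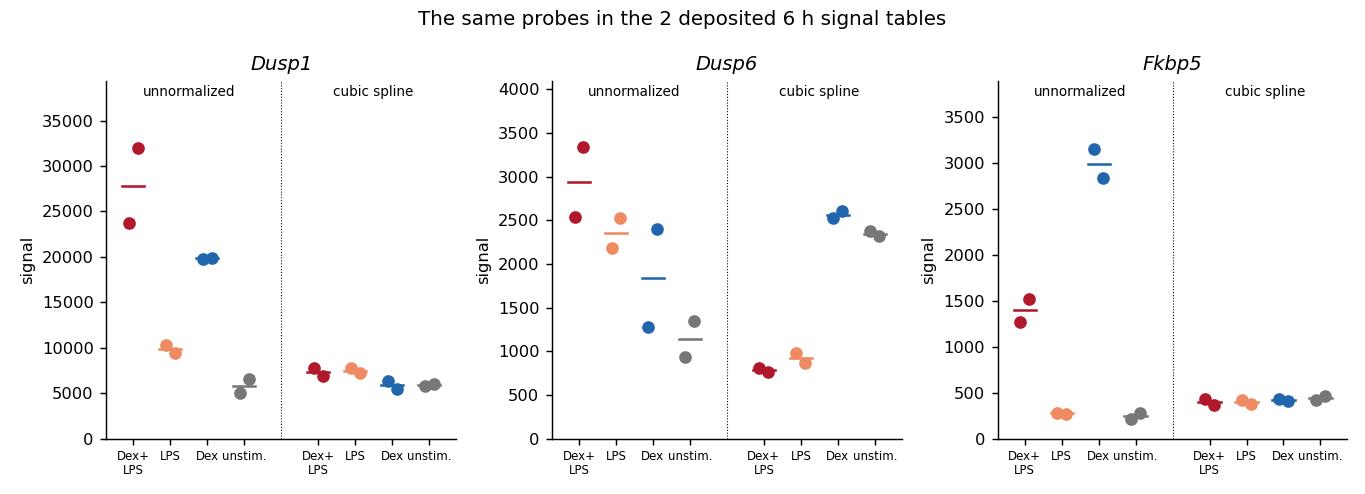
Signal (linear axis from 0) of Dusp1, Dusp6 and the glucocorticoid-induced Fkbp5 on each 6 h array in the unnormalized table (left of each panel) and in the cubic spline table (right), with a bar at the mean of 2. The Dex rises of Dusp1 and Fkbp5 appear only in the unnormalized table, and Dusp6 with LPS is above the unstimulated arrays in the unnormalized table and below them in the spline table.

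Among the group means, Dusp2 and Dusp16 followed each other most closely of the 6 members. Across the 8 group means, centred within each experiment, their Pearson correlation was 0.98, while that of Dusp1 with Dusp2 was 0.23 and that of Dusp1 with Dusp4 was -0.17. Dusp3 ran against the others, with correlations of -0.89 to -0.52. These values describe 8 points that share arrays and normalization, and most of the spread of Dusp2 and Dusp16 lies between the 6 h groups with and without LPS. Of 2460 genes compared in this way, the most like Dusp1 were Hp (0.993), Cd55 (0.982) and Pik3r1 (0.973), which encode haptoglobin, a complement inhibitor and a phosphoinositide 3-kinase subunit. The closest to Dusp2 were Osbpl3 (0.997), Dgkh (0.997) and Lcp1 (0.996), and to Dusp16 Col4a2 (0.993), Hcls1 (0.989) and Gja1 (0.989). For Dusp4 they were Txnrd1 (0.991), Trex1 (0.990) and Fubp1 (0.989), for Dusp6 Myo10 (0.997), Il17ra (0.996) and Lrrk2 (0.990), and for Dusp3 Mtrex (0.980), Ctsk (0.967) and Ehd4 (0.962).

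Of 12 other dual-specificity phosphatases measured at 6 h, LPS raised 1 and lowered 2, beside the 17.1% of all genes called. Dusp8, another JNK and p38 phosphatase, rose by 1.10 ± 0.31 (adjusted p = 0.0199), at unnormalized mean signals of only 339.1 against 233. Dusp7, an ERK phosphatase close to Dusp6, fell by 1.15 (log2, adjusted p = 0.000836), as did Dusp23, by 1.10 (adjusted p = 0.00277). Dex plus LPS lowered Dusp8 against LPS at 6 h (-1.29 ± 0.31, adjusted p = 0.0338), at mean signals of only 235.2 against 339.1. It lowered Dusp28 in both experiments, by 1.10 at 3 h (adjusted p = 0.00123) and by 1.21 at 6 h (adjusted p = 0.00817). These were 1 of 14 measured at 3 h, beside 3.44% of all genes, and 2 of 12 at 6 h, beside 3.76%, and none was called higher.

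MAP kinases are the substrates of the phosphatases. Of 5 measured, LPS raised Mapk6 at 6 h (1.01 ± 0.31, adjusted p = 0.0261), which encodes the atypical kinase ERK3, beside 17.1% of all genes. Mapk8, which encodes JNK1, was higher with Dex plus LPS than with Dex at 6 h (1.19 ± 0.18, adjusted p = 0.000982), at unnormalized mean signals of only 343.6 against 225.5. It was the 1 of 5 called there, beside 13.5% of all genes. None of the 5 was called for Dex plus LPS against LPS at either time, beside 3.44% of all genes at 3 h and 3.76% at 6 h. Among 15 upstream kinases LPS lowered 1 and raised 0 at 6 h, beside 17.1% of all genes called. This was Map2k5 (-1.07 ± 0.18, adjusted p = 0.0013), the kinase that activates ERK5. Dex plus LPS raised 1 of the 15 against LPS at 3 h, beside 3.44% of all genes called. This was Map2k6, an upstream kinase of p38, which was not above background with LPS and was at least 1.54-fold higher (adjusted p = 0.0118). Of 6 kinases that MAP kinases activate, LPS raised 2 and lowered 2 at 6 h, beside the 17.1% of all genes. Mapkapk2, the p38 effector that stabilizes cytokine mRNAs, rose by 1.81 ± 0.20 (adjusted p = 9.95e-05), while Mknk2 and Mknk1, which phosphorylate a translation initiation factor, fell by 1.86 and 1.14 (adjusted p = 4.14e-05 and 0.00331).

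Of 11 other feedback inhibitors of ERK signalling measured at 6 h, LPS raised 2 and lowered 2, beside 17.1% of all genes called. Spred1, a Ras inhibitor, rose by 1.25 ± 0.21 (adjusted p = 0.00129), and Rasa2, a Ras GTPase-activating protein, by 1.29 ± 0.27 (adjusted p = 0.00407). The unnormalized mean signals of Rasa2 were only 277.9 against 194.6. Spry3, of the Sprouty family, was at least 7.47-fold lower with LPS (adjusted p = 2.11e-06), not above background on the LPS arrays. It was also lower with Dex alone than unstimulated at 6 h (-1.17 ± 0.23, adjusted p = 0.0148), at unnormalized mean signals of 411.8 against 563.3. This was 1 of 11, beside 3.52% of all genes called. The list's median LPS difference was -0.15, against -0.089 over all genes.

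Genes that ERK signalling induces early moved in part with LPS and in part with Dex. Of 9 measured at 6 h, LPS raised 4 and lowered 1, beside 17.1% of all genes called. Raised genes included Phlda1 at 4.52 ± 0.47 (adjusted p = 6.48e-05), Egr1 at 3.28 ± 0.23 (adjusted p = 5.55e-06) and Ier3 at 2.14 ± 0.19 (adjusted p = 2.22e-05). The unnormalized mean signals of Phlda1 were 1413 with LPS and only 179.5 unstimulated. Dex plus LPS lowered 2 of the 9 against LPS at 6 h, beside 3.76% of all genes called. These were the transcription factors Egr2 (-2.16 ± 0.18, adjusted p = 0.000147) and Egr1 (-1.57 ± 0.23, adjusted p = 0.00346). Dex alone lowered the same 2, by 2.79 (adjusted p = 5.3e-05) and 1.19 (adjusted p = 0.0149), beside 3.52% of all genes. Their unnormalized mean signals were 231.9 against 630.5 and 318.5 against 448. At 3 h Dex plus LPS lowered Egr2 (-1.20 ± 0.08, adjusted p = 0.000364) and raised Jun (1.84 ± 0.11, adjusted p = 0.000204), out of 10, beside 3.44% of all genes. The list's median for Dex plus LPS against LPS was -0.46 at 3 h and -0.49 at 6 h, against 0.035 and 0.062 over all genes.

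Another list held inflammatory mRNAs known to rise in macrophages that lack Dusp1. Of 9 measured at 6 h, Dex plus LPS lowered 4 and raised 0 against LPS, beside 3.76% of all genes called. The median of the list, -0.78 against 0.062 over all genes, is the value of Tnf, which was saturated on the LPS arrays at 6 h and was not called. The named ones were Il6 (-1.68 ± 0.18, adjusted p = 0.00051), Ptgs2, the inducible cyclooxygenase (-1.61 ± 0.17, adjusted p = 0.000537), and Zfp36, which promotes decay of cytokine mRNAs (-1.49 ± 0.17, adjusted p = 0.000904). At 3 h Dex plus LPS lowered 2 of 10, beside 3.44% of all genes. These were Ptgs2 (-1.56 ± 0.17, adjusted p = 0.00169) and Csf2 (-1.12 ± 0.29, adjusted p = 0.0291), the latter at mean signals of only 179.5 against 240.9. LPS raised 7 of 9 and lowered 0 at 6 h, beside 17.1% of all genes called (8.36% higher), with Cxcl1 at 7.14 ± 0.30 (adjusted p = 1.98e-07). Of the known glucocorticoid-induced genes, Dex plus LPS raised 6 of 10 at 3 h and 5 of 9 at 6 h against LPS. It lowered 1 each time. The shares of all genes called were 3.44% and 3.76%, and the medians of the list were 1.94 and 1.80. The gene lowered at 6 h was Zfp36, which both lists hold. Among those raised were Fkbp5 at 2.70 ± 0.17 and Tsc22d3 at 3.43 ± 0.20 at 6 h (adjusted p = 2.47e-05 for each). At 6 h the lists of MAP kinases, upstream kinases and activated kinases had medians of 0.17 to 0.20 in that comparison.

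**Figure D5:**
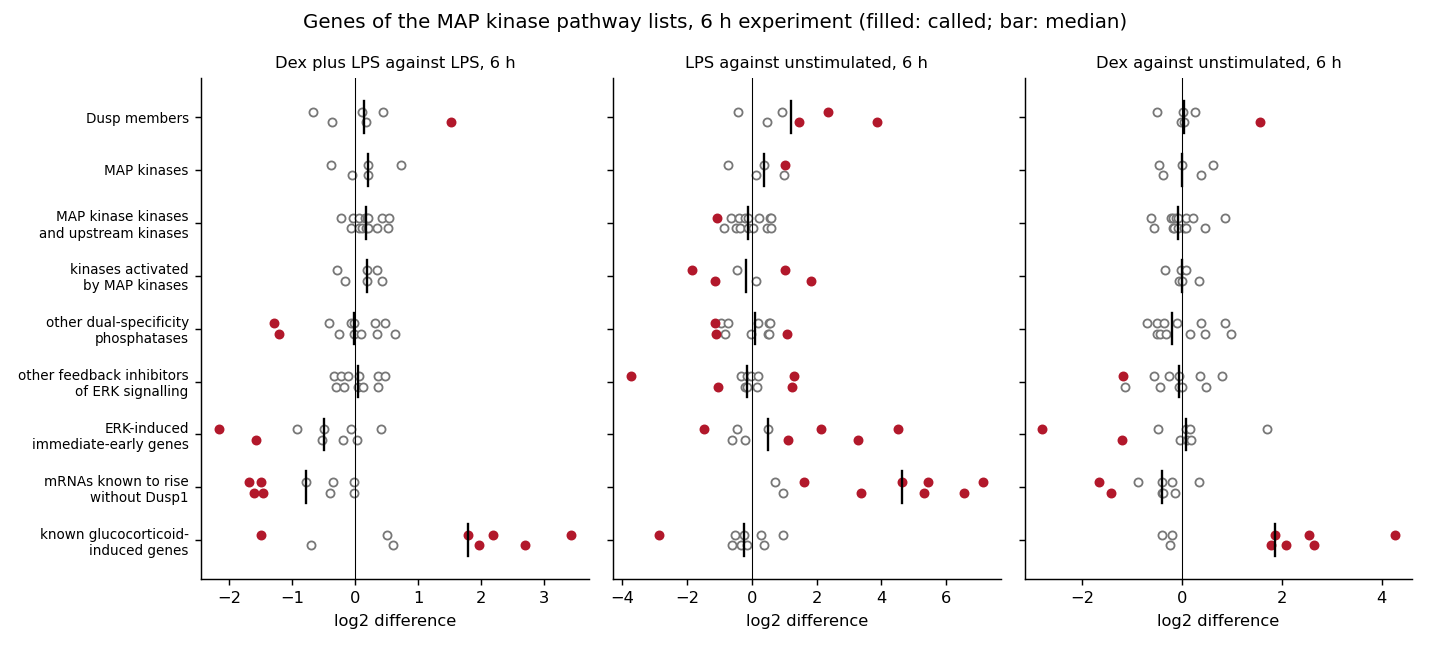
Log2 difference of each measured gene of the 8 lists and of the 6 phosphatases in 3 comparisons of the 6 h experiment, with called genes filled and a bar at the median of each list. Most inflammatory mRNAs lie far to the right for LPS against unstimulated, and Dex plus LPS against LPS shows called genes mainly to the left for immediate-early and inflammatory genes and to the right for glucocorticoid-induced genes and Dusp1.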

How the data were processed

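The deposited data were read from 4 tables of 16 arrays. Per the file headers, 2 unnormalized tables (3 h and 6 h) give each probe's signal, a linear intensity, and a detection p-value, and another gives 6 h intensity after cubic spline normalization by the authors. The last is the authors' value table. Its 3 h columns rank probes as the unnormalized intensity does (medians of 166.9836 to 167.0666). Its 6 h columns, as deposited by the authors, behave as log2 values centred per probe (slopes of 0.955 to 0.994), with medians of -0.0123 and -0.1974 for Dex plus LPS, 0.0458 and 0.0170 for LPS, -0.0978 and -0.0893 for Dex and 0.1628 and 0.1063 for unstimulated. Their normalization stays unknown and the log base rests on the slope. The submitters' processing notes name GenomeStudio. Aligner and build do not apply, and promoter positions are those of RefSeq GRCm38.p6. RNA was purified with Trizol and columns at 3 h and with columns alone at 6 h, per the labels' protocols.

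The 3 h columns show a group and not which sample, so their letters only name replicates. The 32 columns of bead numbers and bead errors were not used here. Of 25697 probes, 23846 have 1 gene symbol, 0 several and 1851 none, and 23839 were matched to RefSeq genes. Background was corrected with limma's normexp model (limma 3.58.1, R 4.3.3), with the control level inferred from detection p-values and an offset of 16, followed by quantile normalization within each experiment. A probe was kept where both arrays of some group had a detection p under 0.05 (11801 probes at 3 h, 11320 at 6 h), and the brightest detected probe stood for a gene (8032 and 7791 genes, 7458 in both). Fits used lmFit and eBayes with 1 mean per group, and the procedure was tested on simulated data. A fold is given as "at least" where all probes of the gene were at background throughout the dim group. The bright group's mean is then set against the higher of the dim probe's value and the lowest signal of a detected probe. A probe was taken as saturated at 80% of an array's highest signal.

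Named genes were the members, the 3 called genes with the largest difference per pathway list and comparison, and the 3 genes most like each member. Comparisons in the text give the leading ones. The members, lists and tests were chosen with earlier results of these data known. Tried alternatives were other scaling, background and offset, no filter, all arrays normalized together, a replicate block, each array left out, the mean of probes and the authors' own tables.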

Additional observations from a re-analysis of the deposited data

Results flagged for a closer look

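In the 3 h experiment the Dex effect with LPS differed from that without LPS, by limma's test of the difference, for Dusp1 (1.533, adjusted p = 0.00047), Dusp4 (-0.745, adjusted p = 0.00354) and Dusp6 (0.449, adjusted p = 0.0354), all on the log2 scale and resting on arrays whose labels the levels of Tnf and Fkbp5 go against. At 6 h none of these 3 differences had an adjusted p under 0.05.

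In other comparisons the differences of a member had opposite signs at 3 h and 6 h, with no overlap of arrays in either experiment on the normalized scale. The difference between the experiments was not tested for these, except for Dusp2, and each 3 h difference here was under 2-fold. Dusp1 gave -0.156 at 3 h (adjusted p = 0.132) and 0.463 at 6 h (adjusted p = 0.0519) for LPS against unstimulated by limma, and neither passed the threshold. For Dex against unstimulated Dusp1 gave -0.187 at 3 h, which missed it (adjusted p = 0.124), and 1.570 at 6 h, which was called (adjusted p = 0.000707). For Dusp2, Dex plus LPS against LPS gave -0.161 at 3 h (adjusted p = 0.273) and 0.170 at 6 h (adjusted p = 0.598), both short of the threshold, and the 6 h value minus the 3 h value was 0.33 ± 0.18 (limma, adjusted p = 0.36). Dusp4 gave -0.438 at 3 h (adjusted p = 0.00946) and 1.592 at 6 h (adjusted p = 0.00193) for Dex plus LPS against Dex. Dusp6 gave -0.139 at 3 h, which missed it (adjusted p = 0.262), and 0.923 at 6 h (adjusted p = 0.0438, under 2-fold) for LPS against unstimulated.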

How the results depend on the processing

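Of 117 values of called members under other processing, 108 kept their call in the same direction, and of 495 values of members not called, 490 stayed uncalled. Of those 495, 25 changed sign, among them 2 of Dusp6 in the spline table that were called. With each array left out in turn, 96 of 96 called values kept their call and 479 of 480 others stayed uncalled. The authors' cubic spline table gave 0 called members for Dex plus LPS against LPS and 0 for Dex against unstimulated at 6 h. Over all genes it gave 0 calls of 7791 in each of these comparisons. There Dusp1 was -0.038 (adjusted p = 0.866) for the first and -0.004 (adjusted p = 0.996) for the second, and Dusp6 was -1.35 for LPS against unstimulated and -1.71 (adjusted p = 1.87e-12) for Dex plus LPS against Dex, while Dusp4 was under 2-fold in both (0.99 and 0.96). The cause was not tested. The mean of detected probes gave 2 called members, with Dusp4 added, for Dex plus LPS against LPS at 3 h (-1.02) and for the difference of the Dex effects at 3 h (-1.11). Dusp3 in Dex plus LPS against Dex at 6 h fell under 2-fold with no background correction (-0.74), with an offset of 50 (adjusted p = 0.00119), with the mean of probes (-0.53), in the authors' value table (-0.79) and in the spline table (-0.01). Median scaling called Dusp6 for LPS against unstimulated at 6 h (1.14). It moved the median of all genes from -0.010 to 0.274 for Dex against unstimulated at 6 h and the share of higher calls there from 46.4% to 86.6%, and Dusp1 stayed called. With the replicate number as a block, the calls among members were the same in number in all 11 comparisons, 1 for Dex plus LPS against LPS at 3 h and 3 for LPS against unstimulated at 6 h. Deviations of same-numbered arrays correlated at -0.220 to 0.029, so the numbers do not pair the arrays. Crossing the numbers of the 6 h Dex arrays, chosen after seeing the data, gave 285 calls over all genes for Dex against unstimulated beside 274.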
